A study of Mus musculus with 2 samples.

Results

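A set of 8 genes of the SLAM family were followed in 2 libraries of bone marrow-derived dendritic cells, which are antigen-presenting cells grown from mouse marrow in culture. The members were taken by symbol: Slamf1, Slamf6, Slamf7, Slamf8, Slamf9, Cd48, Cd84 and Cd244, which makes 8 of the 23238 gene symbols in the files, and every one of the 8 was found. The first library is a control and the second is from cells exposed for 24 h to 100 nM UNE-C1, a protein domain taken from the enzyme cysteinyl-tRNA synthetase and known to bind TLR2 and TLR6, receptors of bacterial lipoproteins. The series was made to find the signalling molecules that UNE-C1 induces. Both cultures came from the marrow of female C57BL/6 mice aged 7 weeks, and both grew with GM-CSF at 20 ng/ml, renewed on day 3, until immature cells that floated or were loosely attached were taken on day 6. The sources used here do not give the number of mice, whether their marrow was pooled, or what the control received. Reads came from the 3' ends of messenger RNA (QuantSeq), so a level in CPM (reads scaled to library size) does not scale with transcript length and is used here to compare genes. Each group has a single library, and replicate error is unknown. Every interval below covers counting error only, no p-value was computed, and a difference is one between these 2 libraries.

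SLAM family receptors are immunoglobulin-type surface proteins of blood cells, and most of them bind a copy of themselves on the neighbouring cell. CD48, a lipid-anchored protein without a cytoplasmic tail, serves instead as the ligand of CD244. The tails of SLAMF1, LY9, CD244, CD84, SLAMF6 and SLAMF7 carry tyrosine switch motifs. Depending on the receptor, these bind the small adaptor SAP, the adaptor EAT-2 or both, or, in their absence, inhibitory phosphatases. SLAMF8 and SLAMF9 have short tails that lack the motif. On dendritic cells and macrophages the family is known for roles in adhesion, uptake of microbes and the tuning of cytokine output.

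All 8 genes lie on chromosome 1 of GRCm38 (the build also called mm10), in 2 groups, and all positions here are from GENCODE M21. The first group holds 6 members over 394 kb: Cd244 (annotated as Cd244a, 171559193 to 171609746, plus strand), Slamf7 (171632403 to 171653035, minus strand), Cd48 (171682009 to 171705258, plus), Slamf1 (171767127 to 171801184, plus), Cd84 (171839697 to 171890718, plus) and Slamf6 (171917515 to 171953170, plus). The second group begins 522 kb further on and holds Slamf9 (172475358 to 172478575, plus) and Slamf8 (172581758 to 172590568, minus). Ly9, the family member that is not on the list of 8, lies wholly inside the annotated span of Cd244 on the opposite strand (171588624 to 171607410). The sources used here do not say whether reads were assigned by strand, so the counts of Cd244 and Ly9 are uncertain. The antisense genes Gm37787 in Slamf7 and Gm37065 at the start of Slamf6 have no entry in the files, and sense and antisense reads at those 2 genes likewise cannot be told apart.

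The 250 bases before the RefSeq start site (GRCm38.p6) were searched in each member for 4 motifs on both strands. They are shown for the deepest-counted genes that were higher (Slamf7, Slamf9) and lower (Cd48, Slamf8) in the UNE-C1 library, 5′ to 3′ on the gene's strand, with motif matches in capitals.
Slamf7, chr1:171649000-171649249, minus strand: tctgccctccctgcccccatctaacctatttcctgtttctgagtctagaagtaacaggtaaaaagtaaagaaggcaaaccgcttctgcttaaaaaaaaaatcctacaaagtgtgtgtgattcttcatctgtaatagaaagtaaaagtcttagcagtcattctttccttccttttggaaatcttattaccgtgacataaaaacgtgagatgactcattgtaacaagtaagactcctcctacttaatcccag
Slamf9, chr1:172475110-172475359, plus strand: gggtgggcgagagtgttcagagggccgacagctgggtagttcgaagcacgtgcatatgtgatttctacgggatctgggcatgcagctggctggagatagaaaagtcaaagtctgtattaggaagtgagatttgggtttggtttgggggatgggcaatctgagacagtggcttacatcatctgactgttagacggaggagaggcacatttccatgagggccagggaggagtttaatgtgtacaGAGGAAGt
Cd48, chr1:171681742-171681991, plus strand: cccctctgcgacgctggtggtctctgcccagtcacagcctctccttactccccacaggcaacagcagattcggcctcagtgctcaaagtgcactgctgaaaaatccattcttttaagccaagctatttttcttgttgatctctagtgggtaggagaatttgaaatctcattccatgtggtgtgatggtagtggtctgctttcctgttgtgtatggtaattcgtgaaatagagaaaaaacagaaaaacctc
Slamf8, chr1:172590569-172590818, minus strand: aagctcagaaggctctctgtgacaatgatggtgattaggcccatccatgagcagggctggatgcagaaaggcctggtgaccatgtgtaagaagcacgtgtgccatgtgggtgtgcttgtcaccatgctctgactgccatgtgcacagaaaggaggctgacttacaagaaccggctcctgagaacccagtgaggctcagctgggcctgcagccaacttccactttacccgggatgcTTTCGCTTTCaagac
The core of the interferon-stimulated response element (GAAA, any 2 bases, GAAA) matched in 1 of the 8 members, Slamf8, on the strand opposite to the gene, 15 to 6 bases before the start, and in 2.98% of all 32851 windows of the same length. GAGGAAG, an ETS site of the kind bound by the myeloid factor PU.1, matched only in Slamf9 among the 8, from 8 to 2 bases before the start, and in 10.6% of all windows. The gamma-activated site TTCNNNGAA (7.02% of windows) and a kappaB-like site (GGG, any 3 bases, TTCC; 4.65%) matched in none of the 8. The start site used for Slamf7 lies inside the longer span that GENCODE gives the gene. A match describes these letters and is not evidence of binding.

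The family as a whole took more reads in the UNE-C1 library. Together the 8 members had 12265 control and 16412 UNE-C1 reads, or 733 and 1157 CPM (1.58-fold higher, counting interval 1.54 to 1.62). With total counts the ratio of the sums was 1.24 (1.22 to 1.27). The difference was uneven: in CPM, Slamf7 alone gained more than the 8 members did together. Slamf7, Slamf9 and Slamf1 were at least 2-fold higher on the log2(CPM + 1) scale, Cd48 and Slamf8 were lower by less than 2-fold on that scale, and Cd84, Slamf6 and Cd244 lay between. A floor of 50 reads in at least 1 library was passed by 7 members and missed by Cd244. Slamf1 passed it only through its UNE-C1 reads, which leaves 6 members past the floor in both libraries. Of the 10469 genes past the floor, 9.31% were 2-fold or more higher with UNE-C1 and 9.42% were 2-fold or more lower, so 49.7% of the genes past 2-fold were higher. With total counts in place of TMM (edgeR's trimmed-mean scaling) that share was 28.0% and the median of all genes moved from -0.00 to -0.33. The 7 members past the floor had a median log2 fold change of 0.60, a description only, since Slamf1 is among them because it was high in the UNE-C1 library.

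**Figure D1:**
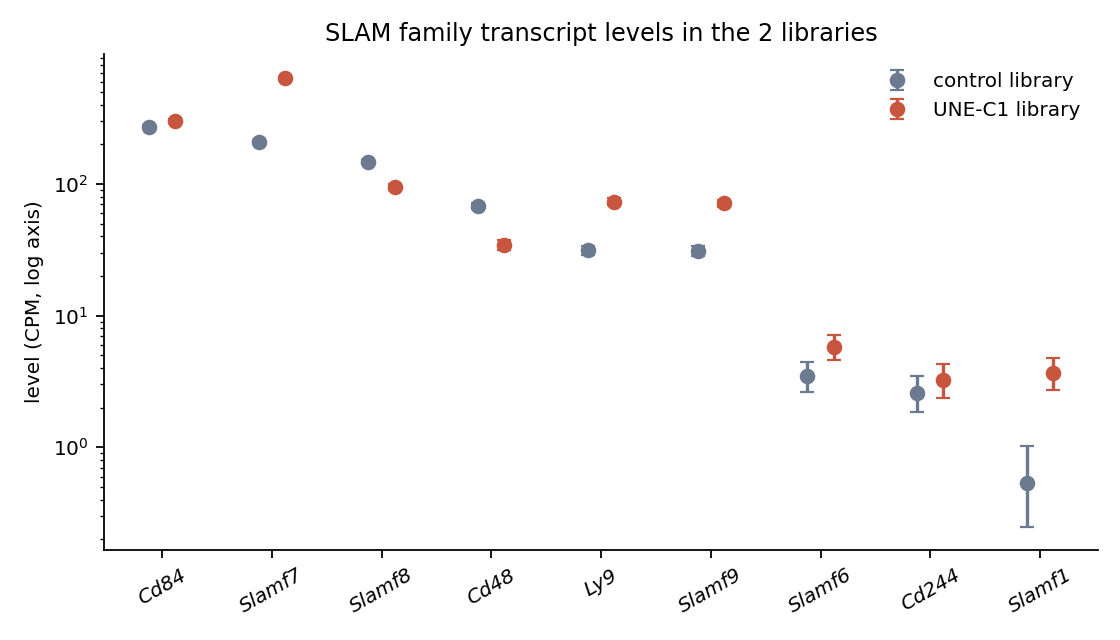
Level of the 8 SLAM family members and Ly9 in the control and UNE-C1 libraries, in CPM on a log axis, with exact 95% Poisson intervals for counting error (hidden by the point for the deeper genes). Slamf7 went from 207 to 641 CPM, and Slamf6, Cd244 and Slamf1 lay below 10 CPM in both libraries.

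Slamf7, which encodes the self-binding receptor also called CRACC or CS1, had 3471 control and 9089 UNE-C1 reads. Its level was 207 CPM (interval 201 to 214) and 641 CPM (628 to 654), a ratio of 3.09 (2.97 to 3.21). Of all genes past the floor, 471 (4.50%) had a higher log2 fold change than its 1.62. Ordered by level, Slamf7 was gene number 664 of the control library and number 228 of the UNE-C1 library. It replaced Cd84 as the most abundant member.

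Slamf9, a short-tailed member found on myeloid cells, had 522 and 1014 reads, at 31.2 and 71.5 CPM. The ratio was 2.29 (2.06 to 2.55) and the log2 fold change 1.17, which 788 genes (7.53%) exceeded. With total counts the ratio was 1.81 and the log2 fold change 0.84, under 2-fold. Ly9, a self-binding receptor best known from lymphocytes, had nearly the same values as Slamf9, with 524 and 1044 reads (31.3 and 73.6 CPM, ratio 2.35, interval 2.11 to 2.62). Its log2 fold change of 1.21 went to 0.87 with total counts, likewise under 2-fold.

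Slamf1, the self-binding receptor CD150 that also recognises bacterial outer membrane proteins, was scarce. It had 9 control and 52 UNE-C1 reads, or 0.538 CPM (0.246 to 1.02) and 3.67 CPM (2.74 to 4.81). The plain ratio of 6.82 was the highest of the 8 members and the least precise, with an interval of 3.33 to 15.7. On the log2(CPM + 1) scale, which holds back genes with few reads, it was 1.60, and with a pseudocount of 5 it was 0.65, under 2-fold.

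Slamf6, the receptor Ly108, known from lymphocyte biology, had 58 and 82 reads (3.47 and 5.78 CPM). Its ratio was 1.67 with a wide interval of 1.18 to 2.38, and with total counts it was 1.31 with an interval of 0.928 to 1.87, which includes 1. Cd244, the receptor for CD48 on natural killer cells and some myeloid cells, had 43 and 46 reads (2.57 and 3.24 CPM). The ratio of 1.26 had an interval of 0.814 to 1.96, so at this depth a difference could not be told from counting error.

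Cd84, a self-binding receptor on many leukocytes, differed least between the libraries among the deeply counted members. It had 4560 and 4284 reads, at 273 CPM (265 to 281) and 302 CPM (293 to 311). The ratio of 1.11 (1.06 to 1.16) turned below 1 with total counts, at 0.874 (0.838 to 0.911), so its direction depends on the scaling.

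Cd48, the ligand of CD244, had 1138 control and 488 UNE-C1 reads, at 68.0 CPM (64.1 to 72.1) and 34.4 CPM (31.4 to 37.6). It was 1.98-fold lower (1.78 to 2.20), and 1057 genes past the floor (10.1%) had a lower log2 fold change than its -0.96. That value is just short of 2-fold, and with total counts it was -1.30 and past it. Slamf8, a short-tailed receptor known to restrain the oxidative burst of macrophages, had 2464 and 1357 reads, at 147 and 95.7 CPM. It was 1.54-fold lower (1.44 to 1.65). Both genes were below 0 under each of the 4 other scalings and both other pseudocounts.

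**Figure D2:**
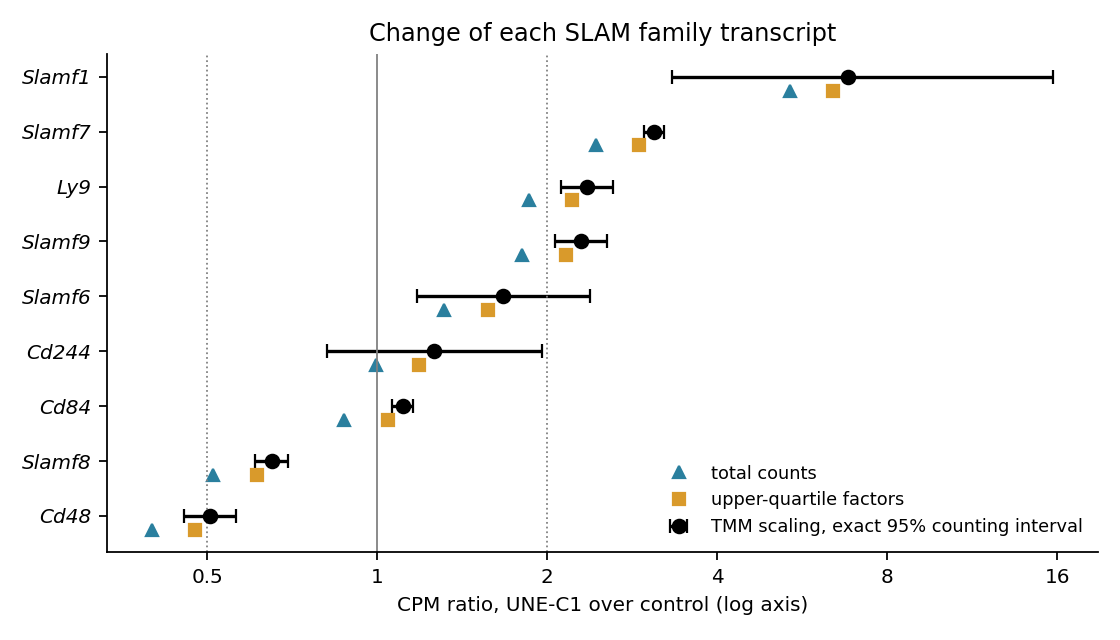
Ratio of CPM, UNE-C1 over control, on a log axis for the 8 members and Ly9, with TMM scaling and its exact 95% counting interval (black), total counts (triangles) and upper-quartile factors (squares). Solid and dotted lines mark ratios of 1 and of 2 in either direction: Slamf1 and Slamf7 stay above 2 under all 3 scalings, Slamf9 and Ly9 do not, and Cd84 crosses 1.

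In the control library the order of levels was Cd84, Slamf7, Slamf8, Cd48, Slamf9, Slamf6, Cd244 and Slamf1, and only the neighbours Slamf6 (2.63 to 4.48 CPM) and Cd244 (1.86 to 3.46 CPM) had counting intervals that overlapped. The order in the UNE-C1 library was Slamf7, Cd84, Slamf8, Slamf9, Cd48, Slamf6, Slamf1 and Cd244. There the intervals of Slamf6 (4.60 to 7.18 CPM) and Slamf1 (2.74 to 4.81 CPM) overlapped, as did those of Slamf1 and Cd244 (2.37 to 4.33 CPM). Slamf9 and Cd48 had thus changed places, as had Slamf7 and Cd84.

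Shares of the family's reads do not depend on how the libraries are scaled. Slamf7 held 28.3% of the 8 members' control reads (exact Clopper-Pearson interval 27.5 to 29.1) and 55.4% of their UNE-C1 reads (54.6 to 56.1). The share of Cd84 went from 37.2% (36.3 to 38.0) to 26.1% (25.4 to 26.8). For Slamf8 it went from 20.1% (19.4 to 20.8) to 8.27% (7.85 to 8.70), and for Cd48 from 9.28% (8.77 to 9.81) to 2.97% (2.72 to 3.24). Slamf9 held 4.26% (3.91 to 4.63) and 6.18% (5.81 to 6.56). The 3 scarce members together stayed a small part, with Slamf6 at 0.473% and 0.500%, Cd244 at 0.351% and 0.280%, and Slamf1 at 0.0734% and 0.317%.

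**Figure D3:**
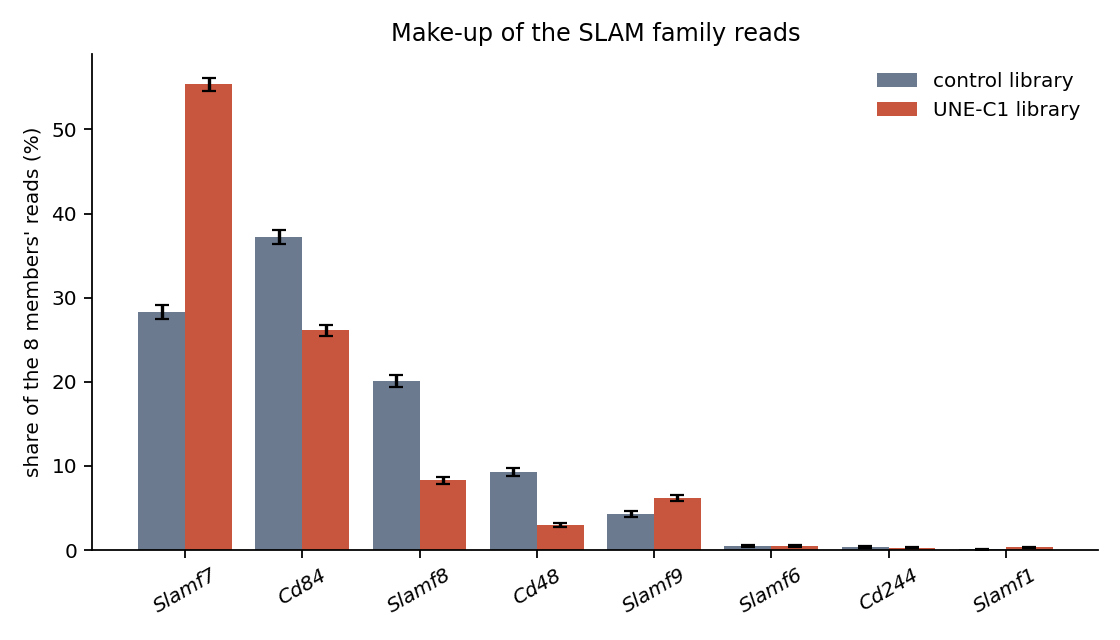
Share of the reads of the 8 members held by each, in percent, in the control and UNE-C1 libraries, with exact 95% binomial intervals for counting error. Slamf7 holds 28.3% of the control and 55.4% of the UNE-C1 reads, while Cd84, Slamf8 and Cd48 hold smaller shares in the UNE-C1 library.

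Read against one another within a library, Slamf7 had 0.761 reads per Cd84 read in the control (0.728 to 0.796) and 2.12 with UNE-C1 (2.05 to 2.20). For each Slamf8 read there were 1.41 Slamf7 reads (1.34 to 1.48) in the control and 6.70 (6.33 to 7.10) with UNE-C1. The short-tailed pair moved apart: Slamf9 reads per Slamf8 read were 0.212 (0.192 to 0.233) and 0.747 (0.688 to 0.811). Slamf8 and Cd48, both lower, kept closer to each other, with 2.17 (2.02 to 2.32) and 2.78 (2.51 to 3.09) Slamf8 reads per Cd48 read.

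Genes next to the family did not share one direction. Within 250 kb of a member, 64 other genes are annotated, 32 of them have an entry in the files, and 19 passed the floor. At least 2-fold higher were 2 of the 19. They were Ly9, itself of the SLAM family though not on the list of 8, and F11r. The latter encodes the junctional adhesion protein JAM-A (196 and 490 reads, ratio 2.95, interval 2.49 to 3.50). At least 2-fold lower were another 2, the phosphatase gene Dusp23 (713 and 195 reads, 3.10-fold lower, 2.64 to 3.65) and Vsig8 (138 and 6 reads), which passed the floor only through its control reads. Over all genes past the floor these shares were 9.31% and 9.42%, so that 2 of 19 in each direction is near the background. The median log2 fold change of the 19 was 0.050. Slamf7 (log2 fold change 1.62) and its neighbour Cd48 (-0.96) lay on opposite sides of 0, but Ly9 (1.21), on the other side of Slamf7, lay above 0. So did Slamf1 (1.60), Cd84 (0.15) and Slamf6 (0.60) of the first group, which left Cd48 as its only member past the floor below 0. In the second group, Slamf9 (1.17) and Slamf8 (-0.62), with other genes between them, lay on opposite sides of 0.

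**Figure D4:**
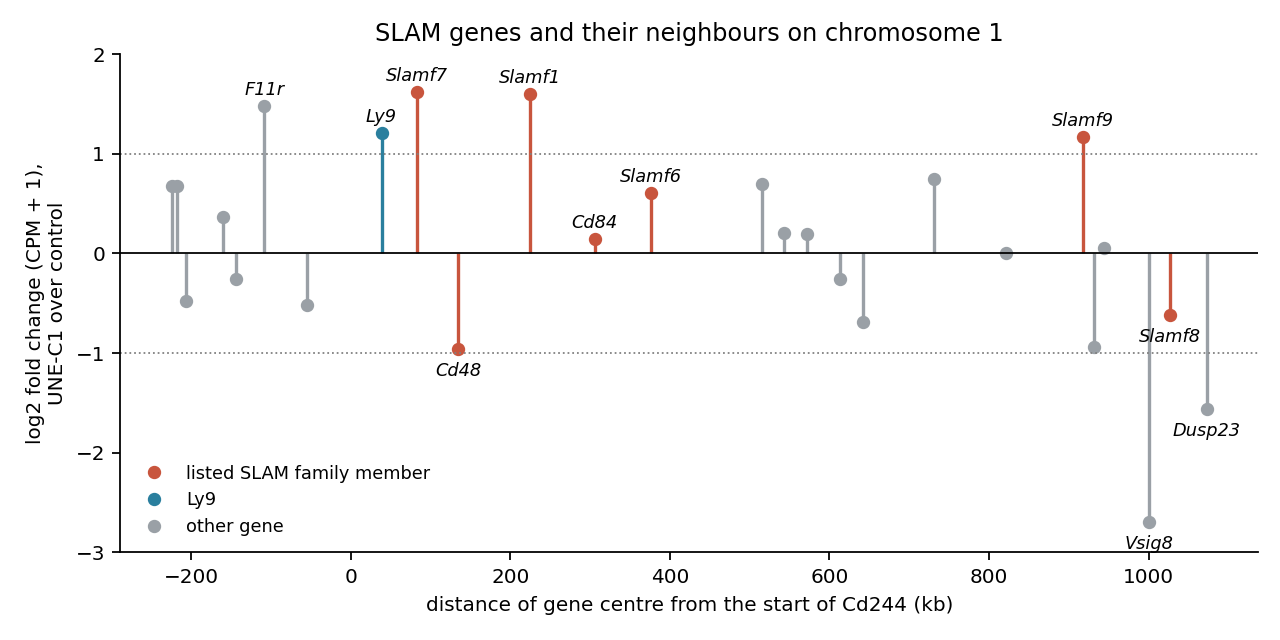
Log2 fold change on the (CPM + 1) scale, UNE-C1 over control, of the genes past the floor in the SLAM region of chromosome 1, by the distance of each gene's centre from the annotated start of Cd244 in kb. Members are red, Ly9 is blue, other genes are grey, and dotted lines mark 2-fold; genes higher and lower in the UNE-C1 library are interspersed along the region.

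The adaptors that bind the tyrosine switch motifs were few. Sh2d1a, which encodes SAP, and Sh2d1b2, which encodes the EAT-2 copy ERT, had 0 reads in both libraries, which, taking a count of 0 to allow 3 reads, leaves room for a level of 0.179 CPM (control) and 0.211 CPM (UNE-C1). Sh2d1b1, which encodes EAT-2, had 212 and 108 reads, at 12.7 and 7.61 CPM, and was 1.66-fold lower (1.31 to 2.12). EAT-2 was therefore the one adaptor of the 3 with reads, and its level moved opposite to that of Slamf7.

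The list of proximal kinases and phosphatases had 9 of 12 genes past the floor, with a median log2 fold change of 0.25. By 2-fold or more, 1 was higher and 1 lower, beside 9.31% and 9.42% of all genes. The higher one was Fyn, the Src-type kinase that SAP recruits, with 410 and 1070 reads (ratio 3.08, 2.74 to 3.46). The lower one was Fgr, a myeloid kinase of the same family, with 2322 and 884 reads (2.23-fold lower, 2.06 to 2.41). Src, at a log2 fold change of 0.91, lay just under 2-fold. The phosphatase genes Ptpn6 (SHP-1), Ptpn11 (SHP-2) and Inpp5d (SHIP-1), named here after their values were seen, had log2 fold changes of 0.05, -0.12 and 0.45.

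Of 10 downstream signalling proteins 8 passed the floor (median 0.20). Among them 1 was higher and 2 were lower by 2-fold or more, beside 9.31% and 9.42% of all genes. Vav1, a guanine nucleotide exchange factor, stood at 1.03, but at 0.69 with total counts and 0.94 with upper-quartile factors. Lat, a scaffold of T and mast cells, had 151 and 17 reads (7.53-fold lower, 4.55 to 13.3) and passed the floor only through its control reads. Dok2, an inhibitory adaptor, had 2346 and 681 reads (2.92-fold lower, 2.68 to 3.18), while its relative Dok1 stood at 0.79.

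The 4 proteins that work with SLAMF7 in phagocytosis had a median of -0.69. Of these, 1 was higher and 1 lower by 2-fold or more, beside 9.31% and 9.42% of all genes. Fcer1g, the signalling chain shared with Fc receptors, went from 1132 to 2416 CPM (ratio 2.13, 2.10 to 2.17), but its log2 fold change was 0.75 with total counts. Itgam, the alpha chain of the integrin Mac-1, went from 403 to 178 CPM (2.26-fold lower, 2.16 to 2.37). Its beta chain Itgb2 and the adaptor Tyrobp (DAP12) had log2 fold changes of -0.61 and -0.76. Cd2, which is outside this list and missed the floor, encodes another ligand-binding relative of the family. It had 24 control and 0 UNE-C1 reads.

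The kinase complex that SLAMF1 joins on the phagosome was nearly level, with Becn1, Pik3c3, Pik3r4 and Uvrag at log2 fold changes of 0.16, 0.10, 0.17 and 0.26. Of the 5 subunits of the phagocyte NADPH oxidase, on which SLAMF8 is known to act, none was past 2-fold (median 0.056). Cybb stood at -0.47, and Ncf1 and Ncf4 both at 0.44. With total counts the medians of the phagosome and oxidase lists were below 0, at -0.17 and -0.29, as were those of the kinase and phosphatase list (-0.09) and the downstream list (-0.14). Over all 7 lists of partners, which count the family member Ly9, 32 of 40 genes passed the floor (median 0.16). Of the 32, 4 were higher and 4 lower by 2-fold or more, beside 9.31% and 9.42% of all genes.

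**Figure D5:**
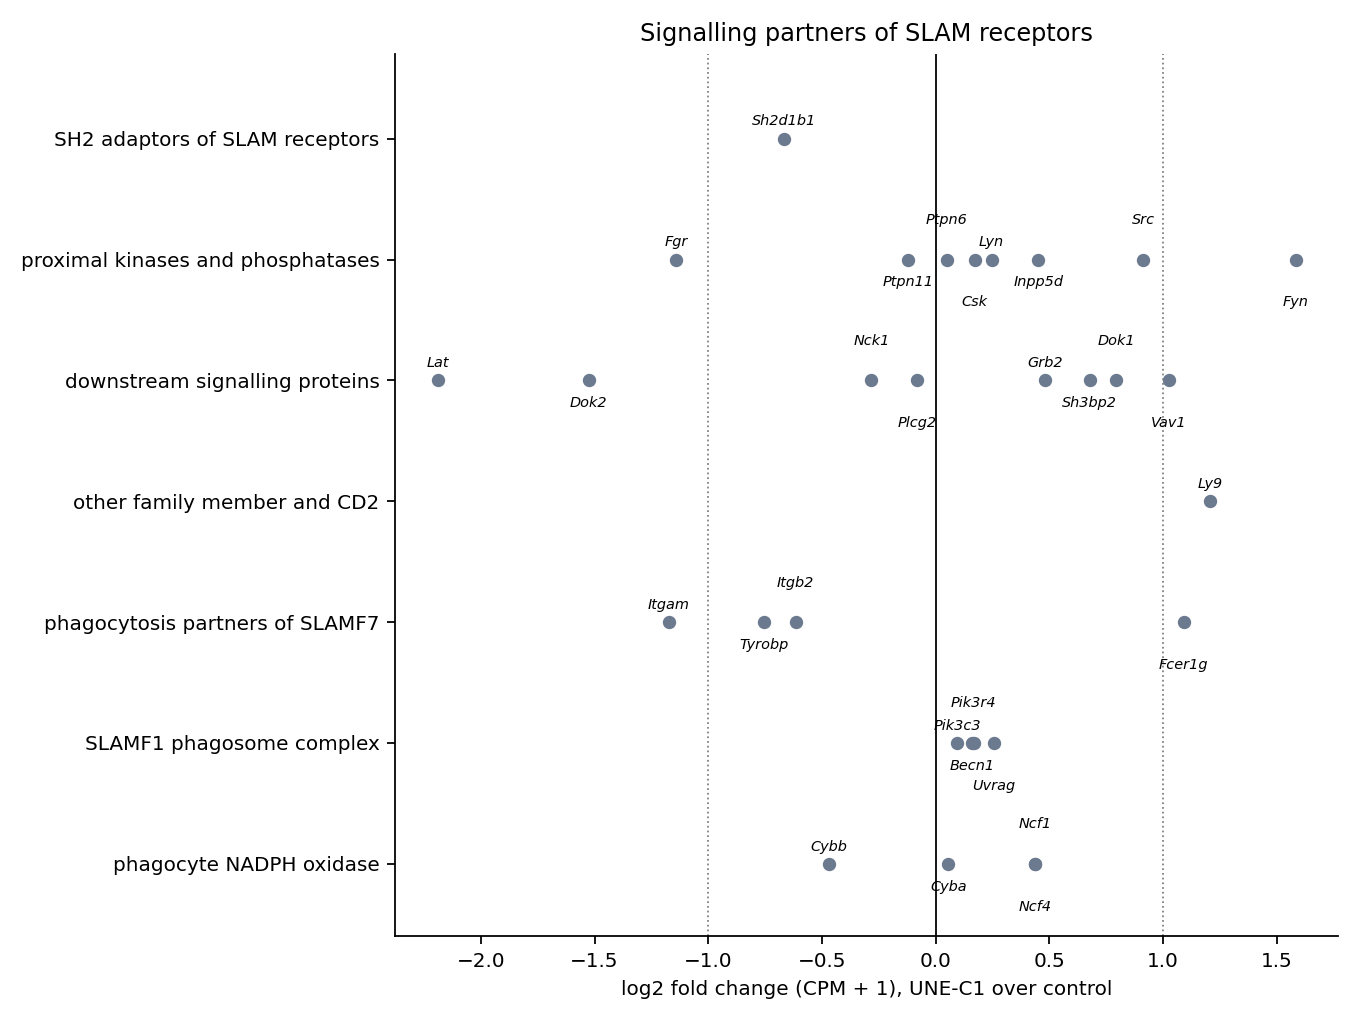
Log2 fold change on the (CPM + 1) scale, UNE-C1 over control, of 30 of the 32 partner genes past the floor, 1 row of points per list, with dotted lines at 2-fold. Fyn, the family member Ly9, Fcer1g and Vav1 lie above the upper line, and Lat, Dok2, Itgam and Fgr below the lower one.

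The libraries held 14857198 control and 15975821 UNE-C1 reads. The 2 dendritic cell markers with most reads were high in both, Cd74 at 2907 and 2901 CPM and H2-Ab1 at 2732 and 2594 CPM. They held most of the summed level of 12 such markers, which was 7233 and 7287 CPM. Flt3 (8.55 and 4.37 CPM), Zbtb46 (3.71 and 4.37), Xcr1 (3.23 and 13.3) and Clec9a (10.5 and 2.40) were low. Of the 12, 8 had log2 fold changes below 0 and 4 above. Lower by 2-fold or more were 2, Itgax, which encodes CD11c (-1.62), and Clec9a (-1.75), which passed the floor only through its control reads. Higher by 2-fold or more were 2, Irf8 (1.32) and Xcr1 (1.76). Other cells of such a culture also carry SLAM receptors, and in bulk RNA fewer cells of a type and less RNA per cell cannot be told apart. All 11 neutrophil markers in the files were at least 2-fold lower (summed 8321 and 3211 CPM, with S100a8 at 3023 and 1285 and S100a9 at 3083 and 1241). Of these, Elane (106 and 6 reads), Mpo (95 and 13) and Cxcr2 (288 and 49) passed the floor only through their control reads. The 9 monocyte and macrophage markers past the floor went both ways, 5 below 0 and 4 above, with 3 lower and 2 higher by 2-fold or more. Csf1r (-0.67) and Lyz2 (-1.60) carried most of their sum of 7395 and 4712 CPM. Fcgr1 stood at 3.55 and Adgre1 at 1.57, while Mrc1 stood at -3.56 and Ccr2 at -2.39. Mast cell, basophil and eosinophil markers summed to 1220 and 802 CPM, with 2 of 6 at least 2-fold lower and Prg2 and Epx at -0.61 and -0.36. Beside these marker counts, 9.31% of all genes past the floor were higher and 9.42% lower by 2-fold or more. The neutrophil markers and the mast cell, basophil and eosinophil markers past the floor were all below 0, as were Cd48 and Slamf8, and their part in those values was not tested.

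Lymphocytes carry Slamf1, Slamf6, Ly9 and Cd244, and the markers of those cells were scarce. Slamf1, Slamf6 and Cd244 were scarce too, at 0.538, 3.47 and 2.57 CPM in the control library and 3.67, 5.78 and 3.24 with UNE-C1. The 10 markers of T and natural killer cells summed to 7.11 and 2.26 CPM, and 4 of them (Cd3e, Prf1, Gzma and Eomes) had no read in either library. Only Klrd1 passed the floor, at 76 and 9 reads, and Cd247 had 21 and 16. The 8 markers of the B lineage summed to 21.2 and 7.05 CPM, with Cd22 at 302 and 89 reads and Cd79b at 15 and 2. Pax5 had no read in either library. Both sums were lower in the UNE-C1 library, but most of each control sum came from 1 gene, Klrd1 (4.54 CPM) and Cd22 (18.0 CPM). Not every marker fell: Ncr1 had 0 and 6 reads, and Cd79a had 3 and 3. Plasmacytoid dendritic cell markers summed to 147 and 446 CPM, of which Bst2, also an interferon-inducible gene, held 38.4 and 301 CPM and Tcf4 81.9 and 127 CPM. Of the 4 such markers past the floor, 2 (Bst2 and Tcf4) had log2 fold changes above 0 and 2 below, and the defining gene Siglech had 9 and 0 reads. The 6 stem and progenitor markers, listed because Slamf1 and Cd48 are used to sort such cells, summed to 163 and 1018 CPM. Procr, the protein C receptor, held nearly all of that sum with 2510 and 14365 reads. Cd34 (102 and 45 reads) was 1.92-fold lower (1.34 to 2.79), and Kit, which was named after its values were seen, had 74 and 19 reads. Both Cd34 and Kit passed the floor only through their control reads. The part of these cells in the SLAM values was not tested.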

How the data were processed

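The values in the deposited files are raw read counts, one per gene symbol, judged by being whole numbers with unequal sums. Per the labels' protocols, 500 ng of total RNA went into each QuantSeq library. Bowtie2, edgeR and mm10 are named in the submitters' processing notes, without version or role; the sources used here do not give the counting tool, its annotation and strand setting, or the treatment of multiply mapped reads. No molecular identifiers are named, so PCR copies cannot be told from molecules. Each file had 23282 entries, and the 79 entries of 35 repeated symbols were summed. CPM used TMM effective library sizes (edgeR 4.0.16, R 4.3.3; factors 1.13 for the control and 0.888 for UNE-C1) on the whole table. A log2 fold change is the log2 of UNE-C1 CPM plus 1 over control CPM plus 1. It was computed for every gene, and a gene entered the comparison if either library had 50 reads of it. Plain ratios have exact conditional binomial 95% intervals, levels exact Poisson and shares Clopper-Pearson intervals (scipy 1.17.1). With 1 library per group no model was fitted and no p-value computed. The script was tested on simulated data. Total counts, DESeq2 (1.42.0) size factors, upper-quartile factors, leaving out the ribosomal RNA gene Rn45s, other pseudocounts (0.1, 5) and other floors (10, 200, none) were tried.

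The members and lists were chosen with earlier results of these data known. The text names the 8 members, up to 4 genes of each partner list with the largest absolute log2 fold change past the floor (every gene of lists of 4 or fewer), neighbours within 250 kb past 2-fold, and the 2 marker genes with most reads per list. Ptpn6, Ptpn11, Inpp5d, Kit, Fcgr1, Adgre1, Mrc1, Ccr2, Itgax, Clec9a, Irf8 and Xcr1 were added after their values were seen. So were Flt3, Zbtb46, Elane, Mpo, Cxcr2 and the markers named for having no or few reads. Genes of like pattern were not sought, since 2 libraries give 1 difference per gene. Promoter sequences are from RefSeq (GRCm38.p6), in which all 8 members matched, Cd244 as Cd244a; protein sequences were not used here. Some genes of the lists are counted but not reported by name here.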

Additional observations from a re-analysis of the deposited data

How the results depend on the processing

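Slamf7, Slamf9, Slamf6 and Slamf1 were higher, and Cd48 and Slamf8 lower, under every scaling and pseudocount tried. For Slamf6 the counting interval of the ratio included 1 with total counts. Cd84 and Cd244 changed sign with total counts. With total counts the log2 fold changes were 1.28 for Slamf7, 0.84 for Slamf9, -0.19 for Cd84, -0.96 for Slamf8 and -1.30 for Cd48, their median over the members past the floor was 0.32, 1 member (Cd48) was at least 2-fold lower, and 1693 of all genes were at least 2-fold lower against 986. Upper-quartile factors gave 1.53 for Slamf7, 0.060 for Cd84 and 1 member at least 2-fold lower. Members at least 2-fold higher numbered 2 in place of 3 with total counts (without Slamf9), a pseudocount of 5 (without Slamf1) or a floor at 200 reads, which Slamf1 does not reach. All genes at least 2-fold higher numbered 657, 724 and 776 under these settings, in that order, against 975. Fewer genes pass the floor of 200 reads. The members' median was 0.72 with a pseudocount of 0.1, 0.35 with 5, 0.43 with a floor of 10 reads or none, and 0.15 with 200 reads. All genes at least 2-fold lower numbered 484 with a pseudocount of 5 and 579 at the floor of 200 reads. With Ly9 in the family sum, the control and UNE-C1 shares were 27.1% and 52.1% for Slamf7, 35.7% and 24.5% for Cd84, and 19.3% and 7.77% for Slamf8. DESeq2 size factors and leaving out Rn45s moved none of the members' log2 fold changes by as much as their counting error. The ratio of the 8 members' summed CPM was 1.49 with upper-quartile factors. Depth limits Slamf1, Slamf6 and Cd244, each under 100 reads per library. No paired analysis was possible because each group has a single library. Leaving out a replicate was not possible either.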
